A study of Mus musculus with 11 samples.

Results

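The clustered protocadherins are cell-surface adhesion proteins of the cadherin superfamily, encoded in 3 tandem gene clusters named alpha, beta and gamma. Their members were taken as every row, listed in all 11 libraries, whose symbol begins with Pcdha, Pcdhb or Pcdhga, Pcdhgb or Pcdhgc followed by an isoform number (or ac1 and ac2 for the alpha C-type genes). The rule found 59 of the 23284 genes listed: 15 in the alpha cluster, 22 in the beta cluster and 22 in the gamma cluster, of which 12 are gamma A, 7 gamma B and 3 gamma C-type genes. In mm9 all of them lie on the plus strand of chromosome 18. The merged alpha gene model spans 37089939 to 37347311, the beta genes 37424652 to 37681073, and the merged gamma gene model 37833989 to 38001527, with Slc25a2 and Taf7 between the beta and gamma clusters.

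Each alpha or gamma isoform is made from its own variable first exon, with its own promoter, spliced to constant exons shared by the whole cluster, while each beta gene is a single exon. In neurons the alternate isoforms are chosen promoter by promoter in each cell, through DNA methylation and through CTCF and cohesin, which join promoters to distant enhancers, whereas the C-type isoforms follow other rules. The proteins bind their own kind across cell contacts and let a neuron tell its own branches from those of its neighbours. Tet enzymes oxidise 5-methylcytosine to 5-hydroxymethylcytosine, a step toward removal of DNA methylation.

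RNA from mouse embryonic stem cells (ESCs) was sequenced in 5 groups. Ribodepleted total RNA came from WT cells and from Tet1, Tet2 and Tet3 triple knockout (TKO) cells, untreated (0 h) or after 4 h in 10 µg/ml α-amanitin, which blocks RNA polymerase II, with 2 libraries in each of these 4 groups. A further 3 libraries held polyadenylated RNA of WT cells, and their labels name no treatment. The TKO cells were an existing line, so the knockout and any other difference between the lines cannot be told apart. The 8 libraries of the α-amanitin experiment, untreated ones included, are described in the study as biological duplicates, while for the polyA libraries the labels do not say whether they came from separate cultures, so that p-values of the polyA comparison may measure technical spread.

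The deposited values are TPM, which corrects reads for gene length and library total. Reads recovered from the steps in these values summed to between 72653679 and 82144939 in the polyA libraries and between 25511975 and 29786093 in the ribodepleted ones, of which 732 to 3171 per library fell on the 59 members. In a ribodepleted library 3 reads on a gene of gamma length came to at most 0.0499 TPM. Tet1 averaged 133 scaled TPM in WT and 30.1 in TKO cells at 0 h and Tet2 51.8 and 7.45, while Tet3 averaged 1.45 in both, so its RNA level does not check the label. All 8 ESC markers were well above 1 TPM, with summed levels of 4379 to 5070 in WT and 3947 to 4499 in TKO libraries. Among 12 neural markers Dcx and Neurog2 averaged under 0.1 TPM, but Tubb3 averaged 162, and the list summed to between 224 and 237 in WT and between 175 and 192 in TKO libraries.

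In these ESCs nearly all clustered protocadherin RNA came from the gamma cluster, at low levels, and the alternate gamma A and gamma B isoforms were lower in TKO than in WT cells. Their summed level at 0 h was 22.3 ± 1.23 scaled TPM in WT and 8.92 ± 0.0815 in TKO cells (mean ± SD, n = 2 libraries each), a ratio of 0.400 ± 0.0225. The 3 gamma C-type isoforms summed to 3.24 ± 0.0695 and 2.72 ± 0.150, a ratio of 0.838 ± 0.0496. These sums are given as a description. In bulk RNA, fewer cells using a promoter and less RNA per cell cannot be told apart.

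**Figure D1:**
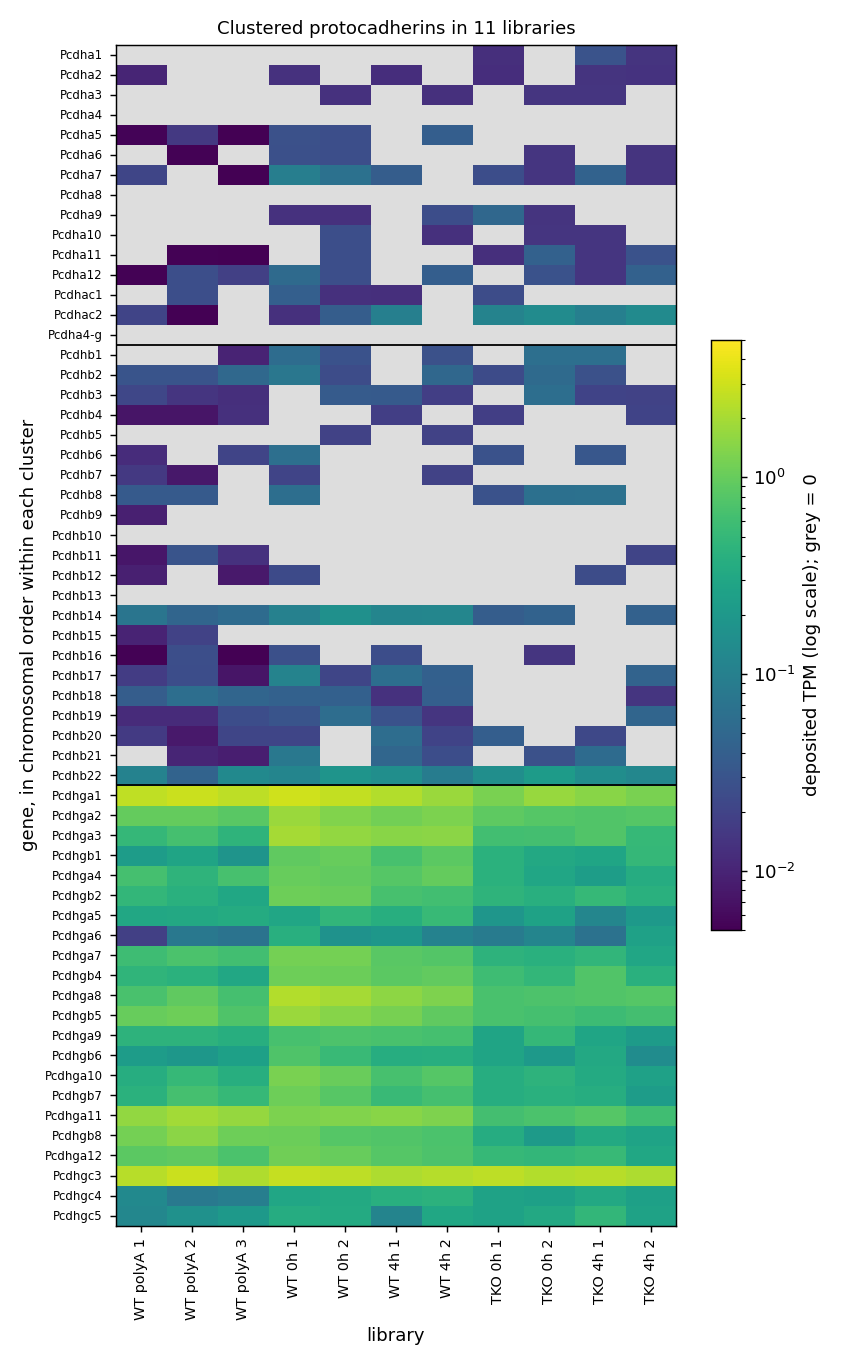
Deposited TPM (colour, log scale; grey for 0) of the 59 members, in chromosomal order within each cluster, in each of the 11 libraries. The gamma cluster is filled in every library, while the alpha and beta rows hold few reads and many zeros, and Pcdha4-g, whose place in the order is not set, is drawn last in the alpha cluster.

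The alpha cluster was close to silent in all 5 groups. It received 7 to 21 reads per library over 15 symbols, and Pcdha4, Pcdha4-g and Pcdha8 were listed at 0 in all 11 libraries. The alpha sum was 0.277 and 0.278 scaled TPM in the WT libraries at 0 h and 0.231 and 0.261 in the TKO libraries. None of its members passed the filters on mean level, so none was tested. The C-type gene Pcdhac2 received 9 and 10 reads in the TKO libraries at 0 h and 7 and 10 at 4 h, against 1 and 3 in WT at 0 h and 8 and 0 at 4 h, and 4, 1 and 0 in the polyA libraries. The TKO libraries were the higher ones at 0 h, but the genotypes overlapped at 4 h. Pcdhac1, the other alpha C-type gene, received 5 reads at most in any library. The remaining alpha isoforms with the highest means, Pcdha7, Pcdha12 and Pcdha11, received at most 7, 5 and 3 reads in a library.

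The beta cluster was likewise near the detection limit. It received 50 to 62 reads per polyA library and 15 to 37 per ribodepleted library over 22 genes, and Pcdhb10 and Pcdhb13 were listed at 0 throughout. Pcdhb22, the last gene of the cluster, was the only beta gene above 0 in all 11 libraries. It stood at 0.113 and 0.182 scaled TPM in WT and at 0.141 and 0.204 in TKO cells at 0 h, and the groups overlapped. Its difference was 0.14 ± 0.34 on the log2 scale (SE; adjusted p = 0.75, limma). Pcdhb14 received 5, 8, 6 and 6 reads in the 4 WT ribodepleted libraries and 2, 2, 0 and 2 in the 4 TKO libraries, which do not overlap, but its mean was too low for the test. It was picked out after its values were seen, as the 1 of 22 beta genes with every TKO library below every WT library. The share was 20.9% over all genes with a mean above 0.1 TPM. Pcdhb22 was the only beta gene in that set, so the counts cover unlike genes. Pcdhb17 and Pcdhb2 received at most 5 and 3 reads in a ribodepleted library. The beta sum was 0.807 and 0.577 scaled TPM in WT and 0.306 and 0.505 in TKO cells at 0 h, a ratio of 0.586 ± 0.246. At 4 h it was 0.628 and 0.530 against 0.444 and 0.338, so the 4 TKO libraries lay below the 4 WT libraries on these few reads.

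The gamma cluster made up 93.8% to 97.5% of the summed TPM of the 59 members in each library, and all 22 of its genes were above 0 in all 11 libraries. In WT cells at 0 h the highest isoform was Pcdhga1, the first gene of the cluster, at 2.95 and 2.71 scaled TPM. The first C-type gene, Pcdhgc3, followed at 2.65 and 2.52, and its libraries did not overlap with those of Pcdhga1. Next came Pcdhga8 at 2.17 and 1.99 and Pcdhga3 at 1.89 and 1.64. At the low end of the alternate isoforms stood Pcdhga6, at 0.382 and 0.169, and Pcdhga5, at 0.290 and 0.477, which overlapped. Even Pcdhga1 was an ordinary gene by level, above 54.5% of all genes listed in WT cells at 0 h and above 48.1% in TKO cells. The lengths behind the gamma TPM values, 4480 to 5079 bases, are those of isoforms with their constant exons. Reads on shared exons were not given to every isoform, since Pcdha4 and Pcdha8 stood at 0 beside alpha isoforms with reads, and the counting mode is not given in the sources used here. Alpha and gamma levels against beta genes may therefore both be understated. Gamma genes have similar lengths, but their levels relative to each other differed between ribodepleted and polyA RNA, as given below. How far they are comparable among themselves was not tested. Reads of similar beta genes can also be lost in mapping, so a beta gene at 0 is uncertain.

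The first comparison asked how the members differed between untreated TKO and WT cells. The main fit, with limma on log2(scaled TPM + 1), tested genes with a mean above 1 scaled TPM, and only 6 members passed: Pcdhga1, Pcdhga2, Pcdhga3, Pcdhga8, Pcdhga11 and Pcdhgc3. A gene was called where its adjusted p was under 0.05 and its change above 1.5-fold. Pcdhga1, Pcdhga3 and Pcdhga8 were lower and none was higher, against 5.45% of all 12467 genes tested called lower and 10.4% called higher. Pcdhga2, Pcdhga3, Pcdhga8 and Pcdhga11 were below 1 deposited TPM in every TKO library and passed the filter through their WT values. The filter therefore favoured lower calls among them, at 0 h and at 4 h. Because that filter left 53 members untested, and adding 1 TPM shrinks the changes of genes at this level, member values are given below from the alternative with a mean above 0.1 scaled TPM and a pseudocount of 0.1 TPM. It tested all 22 gamma genes and Pcdhb22 among 15815 genes. Every gamma gene passed this filter, so within the gamma cluster none was selected by its high group.

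With that filter, 17 of the 19 gamma A and B genes were lower in TKO cells at 0 h and none was higher, against 6.62% of all genes tested called lower and 14.3% called higher. They were 10 of 12 gamma A genes and 7 of 7 gamma B genes. The median change of the 19 genes was -1.20 on the log2 scale, beside 0.01 over all genes tested. None of the 3 gamma C-type genes and not Pcdhb22 passed the test. For each of the 19 genes both TKO libraries lay below both WT libraries, as they did for 37.6% of all genes tested. The same held for the 3 C-type genes, whose separation was small.

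The largest change was that of Pcdhga8, which stood at 2.17 and 1.99 scaled TPM in WT and at 0.641 and 0.677 in TKO cells. Both TKO libraries lay far below both WT libraries, with a difference of -1.52 ± 0.17 on the log2 scale (SE; adjusted p = 0.00022, limma). Pcdhgb8, near the far end of the alternate genes, stood at 1.04 and 0.816 in WT and at 0.335 and 0.196 in TKO cells, a difference of -1.51 ± 0.26 (adjusted p = 0.0020). Its TKO values again lay below both WT values. Pcdhga3, the third gene of the cluster, fell from 1.89 and 1.64 to 0.581 and 0.578, a difference of -1.45 ± 0.20 (adjusted p = 0.00056). Pcdhga7 and Pcdhga10 differed by -1.38 each, Pcdhga4 by -1.33, Pcdhgb1 by -1.27, Pcdhgb2 by -1.23, and Pcdhgb5 and Pcdhgb7 by -1.20 each. These 7 genes lie between Pcdhga3 and Pcdhga11 in the array.

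The most abundant alternate isoform, Pcdhga1, stood at 2.95 and 2.71 in WT and at 1.16 and 1.56 in TKO cells, a difference of -1.01 ± 0.19 (adjusted p = 0.0029, limma). The remaining called genes, among them Pcdhga9, Pcdhga11, Pcdhga12, Pcdhgb4 and Pcdhgb6, differed by between -0.82 and -1.17. Pcdhga5, with 0.290 and 0.477 scaled TPM in the WT libraries and 0.177 and 0.245 in the TKO libraries, and Pcdhga6, at 0.382 and 0.169 against 0.0818 and 0.107, did not pass, with differences of -0.62 ± 0.34 and -0.89 ± 0.48. Both rested on few reads, 11 to 31 per WT library and 6 to 16 per TKO library. With limma voom on the recovered reads, both passed and all 19 genes were called lower, against 8.13% of 14064 genes. The order of the 19 genes along the cluster and their changes had a Spearman rho of -0.08, as a description of genes that share libraries.

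**Figure D2:**
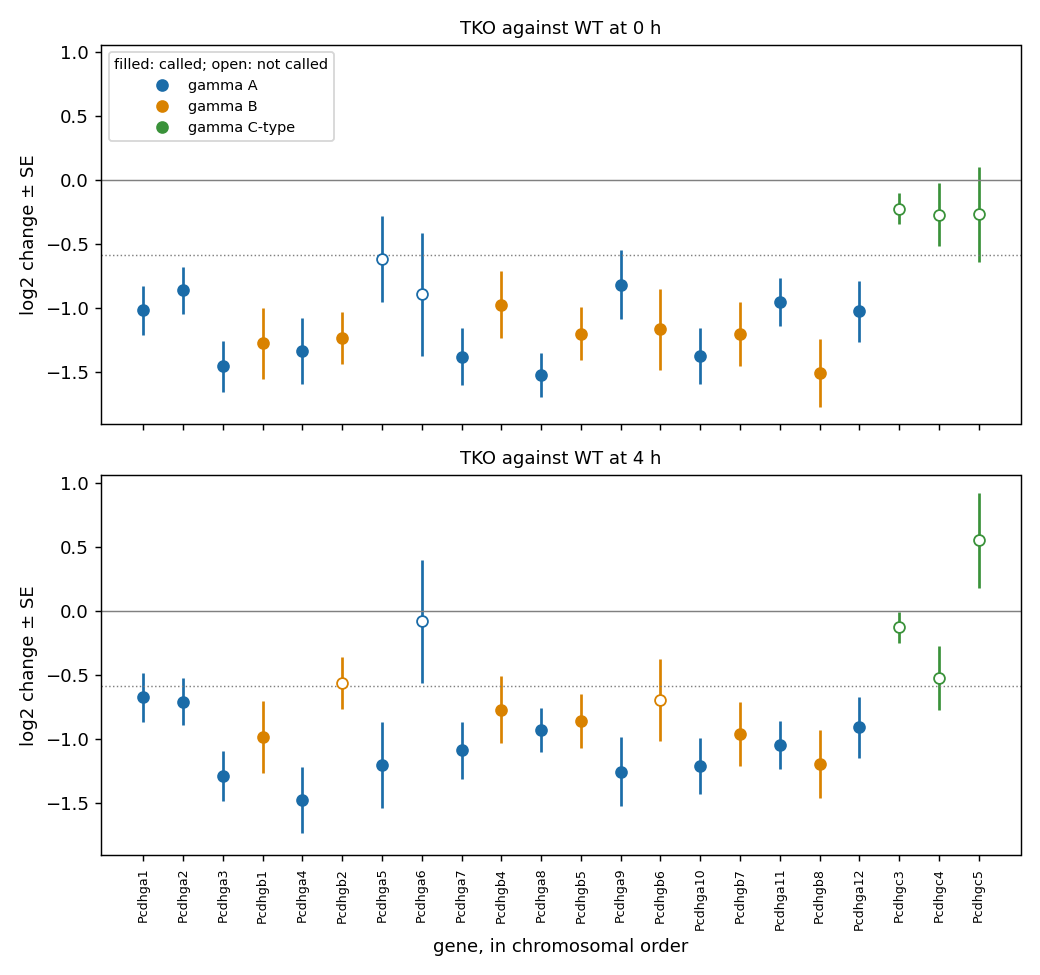
Log2 change (± SE, limma, pseudocount 0.1 TPM) of each gamma gene in TKO against WT cells at 0 h and at 4 h, in chromosomal order, with filled points for called genes and a dotted line at 1.5-fold lower. The gamma A and B genes lie between -1.52 and -0.08, while the 3 C-type genes at the end of the cluster lie between -0.52 and 0.55 and none is filled.

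The C-type isoforms were measured in the same libraries. Pcdhgc3, which is expressed outside the nervous system as well, had 179 and 169 reads in WT and 176 and 140 in TKO cells at 0 h. It stood at 2.65 and 2.52 scaled TPM in WT and at 2.33 and 2.08 in TKO cells, a difference of -0.22 ± 0.12 (SE; adjusted p = 0.17, limma). The TKO libraries were a little below the WT ones at both times, but the difference did not pass the test. Pcdhgc4, at 0.290 and 0.334 against 0.246 and 0.235, and Pcdhgc5, at 0.353 and 0.341 against 0.250 and 0.296, differed by -0.27 ± 0.25 and -0.27 ± 0.37. With 17 to 24 reads per library for either gene, changes of the size seen in Pcdhga2 or Pcdhga9 could have been missed.

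The make-up of the cluster moved accordingly. C-type isoforms took 12.4% to 15.4% of the summed gamma TPM in the 4 ribodepleted WT libraries and 16.3% to 17.1% in the polyA libraries. In TKO cells they took 24.2% and 22.5% at 0 h and 24.7% and 24.0% at 4 h, so no TKO library overlapped with a WT library. Pcdhgc3 was the top gamma gene in all 4 TKO libraries, 5.04 to 5.98 times the median alternate isoform, against 2.42 to 2.85 times in the 4 ribodepleted WT libraries. In the polyA libraries of WT cells it was 4.23 to 4.84 times that median. These shares were not tested, since the groups of genes were chosen with results known.

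**Figure D3:**
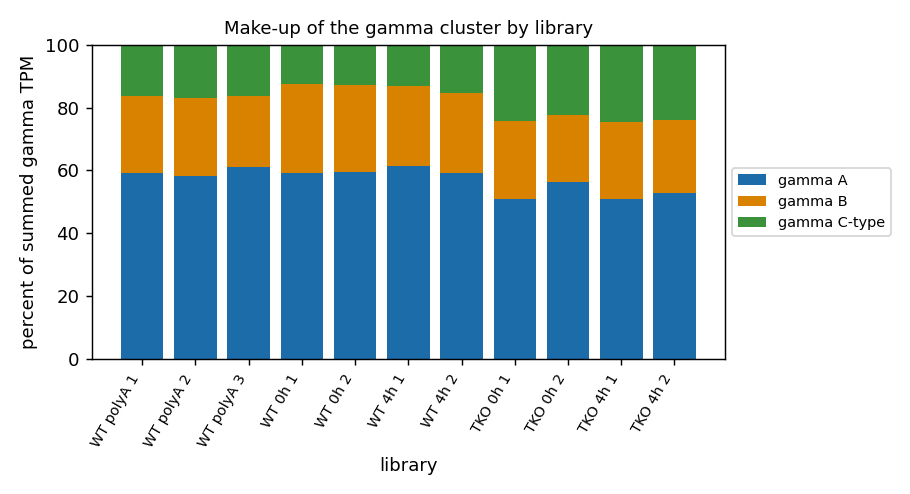
Percent of the summed gamma TPM taken by gamma A, gamma B and C-type genes in each of the 11 libraries. The C-type share is 22.5% to 24.7% in the 4 TKO libraries and 12.4% to 17.1% in the 7 WT libraries.

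The genotypes were compared again after 4 h of α-amanitin, in libraries not used at 0 h, although one fit gave the spread for both. Here 16 of the 19 gamma A and B genes were lower in TKO cells and none was higher, against 6.72% of all genes tested called lower and 15.7% called higher, and 15 genes were called at both times. Pcdhgb2 (-0.57 ± 0.21, just short of 1.5-fold) and Pcdhgb6 (-0.70 ± 0.32) were called only at 0 h, and Pcdhga5 (-1.20 ± 0.34, adjusted p = 0.017, limma) only at 4 h. The largest change was that of Pcdhga4, which stood at 0.910 and 1.07 in WT and at 0.227 and 0.367 in TKO cells, a difference of -1.48 ± 0.26 (adjusted p = 0.0017). Pcdhga3 (-1.29 ± 0.20), Pcdhga9 (-1.26 ± 0.27) and Pcdhga10 (-1.21 ± 0.22) followed. The median over the 19 genes was -0.96, beside 0.03 over all genes tested, and their changes at the 2 times had a Spearman rho of 0.31. In the main fit only Pcdhga3 was called, lower, against 5.83% of genes called lower.

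Pcdhga6 was the exception among the alternate isoforms at 4 h, with 0.215 and 0.115 scaled TPM in the WT libraries and 0.0647 and 0.266 in the TKO libraries. One TKO library was above both WT libraries and the other below them. Over both times, every TKO library was below every WT library for 18 of the 19 gamma A and B genes and for Pcdhgc3. The same held for 20.9% of all genes tested, and for Pcdhb14, which was not among them. At 4 h Pcdhgc3 had 2.40 and 2.54 in the WT libraries and 2.30 and 2.19 in the TKO libraries, a difference of -0.13 ± 0.12 (adjusted p = 0.41, limma). Pcdhgc4 differed by -0.52 ± 0.25 and Pcdhgc5 by 0.55 ± 0.37, and neither passed. Pcdhgc4 did pass at 4 h with voom on the recovered reads (-0.70 ± 0.29, adjusted p = 0.041) and with quantile normalisation.

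**Figure D4:**
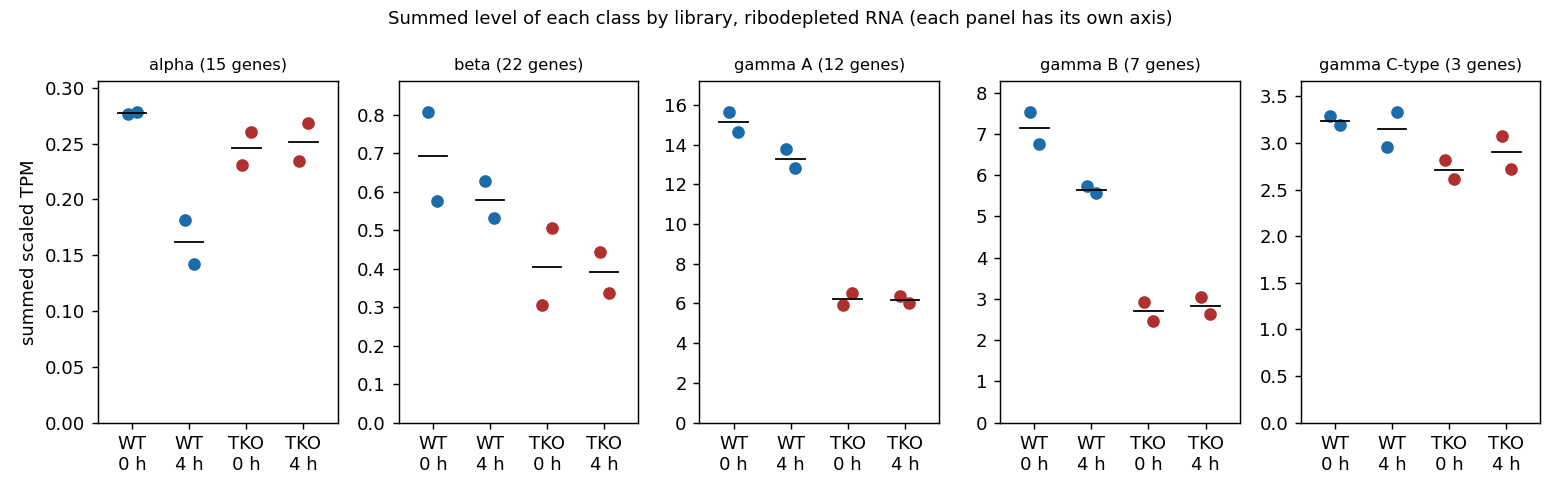
Summed scaled TPM of the alpha, beta, gamma A, gamma B and gamma C-type genes in each of the 8 ribodepleted libraries (points; lines are means of 2), with a separate axis from 0 in each panel. Gamma A and B sums separate WT from TKO libraries at both times, the beta sums, on 15 to 37 reads per library, lie at 0.530 to 0.807 in WT and 0.306 to 0.505 in TKO libraries, and the alpha sums of the genotypes overlap over the 8 libraries.

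α-Amanitin for 4 h was followed by no called change in any member in either genotype. The gamma A and B sum was 22.3 ± 1.23 scaled TPM at 0 h and 18.9 ± 0.822 at 4 h in WT cells, and 8.92 ± 0.0815 and 9.02 ± 0.538 in TKO cells, as ratios 0.850 ± 0.0598 and 1.01 ± 0.0611. In WT cells 15 of the 19 genes had lower values at 4 h, with a median of -0.29, but no member passed limma with the lower filter, with voom or in the main fit, and 1 member had an unadjusted p under 0.05 with the lower filter, Pcdhgb2 (-0.50 ± 0.21, adjusted p = 0.11), against 40.5% of all genes tested. With voom Pcdhgb2 and Pcdhga8 passed the adjusted p (0.042 and 0.045) but not the fold. Of all genes tested, 2.54% were called lower and 0.386% higher in WT cells, and 2.01% lower in the main fit. In TKO cells the median of the 19 genes was -0.02, no member was called and none had an unadjusted p under 0.05, against 20.4% of all genes with such a p, 0.0126% called lower and 0.16% called lower in the main fit. The interaction of genotype and α-amanitin gave no called member with limma or voom, but 0.0% of the 15815 genes tested with limma were called in either direction, so this count is not particular to the members. With limma 2 members had an unadjusted p under 0.05, Pcdhga8 and Pcdhgb2, against 6.87% of all genes tested. Since TPM is relative within a library, a loss shared by all transcripts after the block cannot be seen in these values.

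PolyA-selected and ribodepleted RNA of WT cells were compared in a separate fit, in which the selection and the sequencing experiment cannot be told apart. With the lower filter 16 members were lower in polyA RNA and none higher, against 20.0% of 15594 genes called lower and 21.6% called higher. These were 14 of the 19 gamma A and B genes tested, 8 gamma A and 6 gamma B, and 2 of the 3 C-type genes. Pcdhgb1 changed most, at 0.221, 0.270 and 0.174 scaled TPM in polyA and 0.959 and 1.06 in ribodepleted RNA, a difference of -1.80 ± 0.20 (SE; adjusted p = 0.00014, limma). Pcdhga3 followed at -1.68 ± 0.17, then Pcdhga8 at -1.47 ± 0.16 and Pcdhgb4 at -1.35 ± 0.18. In each of them all polyA libraries lay below both ribodepleted ones.

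Other isoforms were not called between the kinds of RNA. Pcdhga1 stood at 2.49, 2.74 and 2.47 in polyA and at 3.11 and 2.86 in ribodepleted RNA (-0.21 ± 0.10), and Pcdhgc3 at 2.33, 2.77 and 2.13 against 2.79 and 2.66 (-0.18 ± 0.13). Pcdhga11 (0.27 ± 0.12), Pcdhgb8 (0.30 ± 0.17), Pcdhga12 (-0.41 ± 0.15) and Pcdhgc3 are the 4 neighbours that end the alternate array and open the C-type genes, and none of them was called, although Pcdhga12 passed the adjusted p (0.043, limma) without reaching 1.5-fold. The next genes, Pcdhgc4 and Pcdhgc5, were lower in polyA RNA, by -1.10 ± 0.23 and -0.86 ± 0.23. In the main fit 2 of 8 members tested, Pcdhga3 and Pcdhga8, were lower, against 16.4% of genes called lower and 18.7% called higher. Both passed the filter of that fit through their ribodepleted values, so it favoured lower calls for them.

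**Figure D5:**
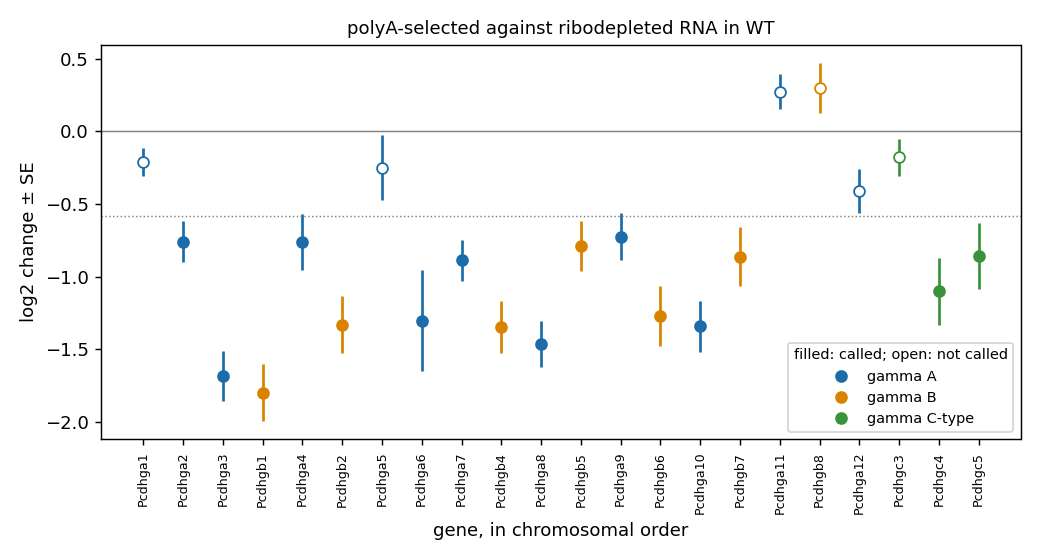
Log2 change (± SE, limma, pseudocount 0.1 TPM) of each gamma gene in polyA-selected RNA of WT cells against ribodepleted RNA of untreated WT cells, in chromosomal order, with filled points for called genes. Changes run from -1.80 at Pcdhgb1 to 0.30 at Pcdhgb8, and the run from Pcdhga11 to Pcdhgc3 holds no filled point.

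Genes related to the clusters were read from the same fits at 0 h, with the lower filter, where 14.3% of all genes tested were called higher and 6.62% lower, with a median of 0.01. Of 12 non-clustered protocadherins, single genes outside the 3 clusters, 6 were tested. Of these, 4 were higher in TKO cells and none lower, with a median of 1.04. Pcdh1 averaged 2.96 ± 0.0858 scaled TPM in WT and 8.43 ± 0.196 in TKO cells (SD, n = 2 libraries each; log2 difference 1.48 ± 0.09, SE, adjusted p = 8.6e-06, limma), and Pcdh19, Pcdh18 and Pcdh17 differed by 1.28, 1.26 and 0.83. Of 22 tested factors that act on the cluster promoters, none was called in either direction, with a median of -0.14. Among them Ctcf differed by -0.05, Rest by -0.12, Dnmt3b by -0.31 and the heterochromatin factor Smchd1 by 0.05. Some uncalled factors moved more. Wapal averaged 226 scaled TPM in WT and 168 in TKO cells at 0 h, Pds5a 158 and 119, and Lrif1 (listed as 4933421E11Rik) 9.72 and 6.64. Dnmt3l went the other way, at 319 in WT and 368 in TKO cells.

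Of 14 genes beside the clusters, 1 was lower and 1 higher in TKO cells, with a median of -0.20 beside 0.01 over all genes tested, so neither count stood out from the shares over all genes. Dnd1 differed by -0.89 and Arap3 by 1.42, while Taf7, which sits between the beta and gamma clusters, stood at -0.32 and Diap1, just beyond the gamma cluster, at -0.09. Of 15 genes for intracellular partners and proteases, 2 were higher and 1 lower, close to the 14.3% and 6.62% of all genes. Adam10, a protease that sheds protocadherin ectodomains, differed by 1.08, the actin regulator Cyfip2 by 1.00 and its complex partner Brk1 (listed as 6720456B07Rik) by -0.87. Of 9 tested neural markers, Nes, Neurod1 and Gfap were higher and Olig2 was lower, and of 8 ESC markers Zfp42, Klf4 and Esrrb were lower, the first by -2.09 and the last by -0.74. The part of these marker changes in the gamma values was not tested.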

How the data were processed

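RNA-seq was analysed in 11 mouse ESC libraries, grouped by their titles. The deposited values are TPM per gene, made by the authors from HTSeq counts per gene after STAR alignment to mm9 with RefSeq genes. Versions, the strand setting and the treatment of shared exons are not given in the sources used here, so values of overlapping or near-identical genes are uncertain.

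Size factors scaled the TPM. They came from the median of ratios over genes with a mean above 1 TPM and above 0 in every library of the fit, under either filter. Linear models (limma 3.58.1, R 4.3.3, eBayes with a trend) took log2(scaled TPM + 1) of the 8 ribodepleted libraries without a replicate block, for genes with a mean above 1. A separate fit of the same kind compared the polyA libraries with the untreated ribodepleted WT libraries, 5 in all. Calls needed a Benjamini-Hochberg adjusted p under 0.05 and a change above 1.5-fold. Fold changes are on the log2(value + pseudocount) scale and understate those of low genes. Member values come from the alternative with a filter and pseudocount of 0.1 TPM. Whole reads, up to a common divisor, were recovered for 100% of 19869 genes above 0 (tolerance 0.01 read) and describe depth, which covers counting error only. In voom they entered as an alternative, with a minimum mean of 10 reads for the lower filter. Class sums were not tested. The fit was also run on simulated reads with known changes and 1 fixed dispersion, and no result given here rests on that run. Replicates differed by more than sampling noise in every group.

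Members and lists were chosen with earlier results of these data known. Named were the 5 C-type genes, the 4 highest members of each cluster and at most 12 called members per contrast. Of each list, called genes and a few of the others are given. Pcdhga2 and Pcdhb14's separation were added after their values were seen. Listed genes under other symbols were matched through RefSeq synonyms (assembly GRCm38).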

Additional observations from a re-analysis of the deposited data

Results flagged for a closer look

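Pcdhga8 had lower values after α-amanitin in WT libraries and higher values in TKO libraries, though neither difference was called (-0.38 ± 0.17 and 0.21 ± 0.17 on the log2 scale, SE, adjusted p = 0.14 and 0.52, limma). Both WT libraries at 4 h (1.75 and 1.42 scaled TPM) were below both at 0 h (2.17 and 1.99), and both TKO libraries at 4 h (0.730 and 0.831) were above both at 0 h (0.641 and 0.677). The change in TKO minus the change in WT cells was 0.59 ± 0.25 on the log2 scale (SE), and this interaction did not pass limma (adjusted p = 0.72).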

How the results depend on the processing

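In the main fit, with its mean above 1 TPM, the numbers of members called in TKO against WT cells at 0 h, at 4 h and in polyA against ribodepleted RNA were 3, 1 and 2. They became 5, 5 and 4 with a pseudocount of 0.1 TPM, with no fold threshold and with voom, 7, 2 and 6 with a filter of 0.1 TPM or no filter, 17, 16 and 16 with filter and pseudocount both at 0.1 TPM, and 0, 0 and 0 with a pseudocount of 5 TPM, which shrinks changes at these levels by construction. Quantile normalisation gave 5 and 5 in the genotype comparisons. Leaving out a replicate gave 3 to 4, 1 to 3 and 1 to 2, with 3 at 4 h without WT replicate 2, 2 without TKO replicate 1, and 1 in polyA RNA without either ribodepleted WT replicate.

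With the filter and pseudocount at 0.1 TPM, alternatives chosen after seeing the data left all 3 counts within 1.5 times: leaving out a replicate gave 14 to 17 at 0 h, 11 to 15 at 4 h and 13 to 16 in polyA RNA, and the median of the 19 gamma A and B genes at 0 h ran from -1.50 to -1.06 over the 15 fits. No named member that was called changed sign in these fits. Pcdhga9 at 0 h and Pcdhgb4 at 4 h lost their calls most often. With deposited TPM without scaling the median of all genes was 0.11 at 0 h and 0.19 at 4 h, beside 0.01 and 0.03 with scaling. The C-type genes then had medians of -0.19 and 0.02, the highest over the 15 fits. Their lowest medians, -0.60 at 0 h and -0.40 at 4 h, came with quantile normalisation, where gamma A and B genes had medians of -1.50 and -1.32. The size of the C-type difference thus depended on the scaling. No member was called for α-amanitin or the interaction under any alternative. Replicate numbers did not pair the libraries (correlations of -0.04 to 0.12), and the replicate block left 17 calls at 0 h, 16 at 4 h and 3 and 1 in the main fit.

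The gamma sum ratio of TKO to WT at 0 h, 0.456, was 0.487 with deposited TPM and 0.411 without Pcdhgc3, its highest member, and the alpha ratio, 0.886, was 0.518 without Pcdhac2. Depth limits the alpha and beta clusters, whose genes had 17 reads at most in any library.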
